A study of Mus musculus with 16 samples.

Results

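Complement is a cascade of secreted proteins and of the receptors that read its products. The 9 genes described here were chosen by symbol: the 3 chains of C1q (C1qa, C1qb and C1qc), the cascade components C3 and C4b, properdin (Cfp), and the receptors C3ar1, C5ar1 and C5ar2. They are 9 of the 53700 gene lines in each count file, and all 9 were among the 17090 genes whose counts were high enough to test. RNA-seq was run on microglia, the resident macrophages of the brain, sorted from whole mouse brain by a gate that took CD11b-high, CD45-intermediate cells and left out those positive for DAPI or Ly6c. Ercc1 encodes a subunit of a DNA repair endonuclease, and the study set Ercc1 knockout (KO) mice against wild-type (WT) controls at 2 ages. The 16 libraries formed 4 groups of 4: KO at 6 weeks, WT at 6 weeks, KO at 12 weeks and WT at 12 weeks. All mice came from a C57Bl6J and FVB cross. By the labels, there were 2 males and 2 females in each 6-week group and 3 males and 1 female in each 12-week group. The form of the Ercc1 allele is not given in the sources used here, nor is whether each library came from a single animal, so p-values measure the spread between libraries.

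C1q recognises immune complexes, dying cells and, in the developing or injured brain, synapses, and it starts the classical pathway, in which C4 and then C3 are cleaved and deposited on the target. C3 fragments are read by phagocytes through complement receptors, while the small fragments C3a and C5a act as signals through C3ar1 and C5ar1. Microglia are known as the main source of C1q in the brain.

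The libraries held between 7882182 and 22142972 gene counts, with 17249 to 21472 genes detected. Levels are given as CPM, the normalised read count, on library sizes scaled by the trimmed mean of M-values (TMM). Ercc1 itself averaged 3.63 ± 0.803 CPM in KO and 18.8 ± 7.91 CPM in WT at 6 weeks (SD, n = 4 each), and 4.28 ± 2.80 CPM in KO and 20.7 ± 19.2 CPM in WT at 12 weeks, with no overlap between KO and WT libraries at either age. Among the 12-week libraries, WT replicate 3 stood apart on the second principal component and WT replicate 8, followed by KO replicate 4, on the third. WT replicate 5_6, labelled male, carries 2 numbers in its title and held both Xist and Y-linked transcripts (339.5 and 109.4 CPM). Its Xist level is at odds with that label. KO replicate 3, labelled female, held 9.85 CPM of Y-linked transcripts, beside 0 to 0.114 CPM in the other libraries labelled female. All 10 microglial markers were present in every group, summing to 59813 to 70249 CPM in KO and 71753 to 78529 CPM in WT at 6 weeks, and to 51359 to 54005 CPM in KO and 65105 to 72738 CPM in WT at 12 weeks. Of these markers P2ry12 passed the test as lower in KO at 6 weeks, and P2ry12, Cx3cr1 and Gpr34 at 12 weeks; their part in the complement levels was not tested.

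At 6 weeks, 1 of the 9 genes passed the test as higher in KO (C3ar1) and 1 as lower (C5ar2), against a background of 0.796% of all tested genes called higher and 0.0761% called lower (edgeR's quasi-likelihood test, Benjamini-Hochberg adjusted p under 0.05 over all 17090 genes). At 12 weeks, 4 passed as higher (C1qb, C1qc, C3 and C3ar1) and 0 as lower, against 2.03% and 0.954% of all genes. At an unadjusted p under 0.05 the number was 7 of 9 at each age, against 7.31% of all genes at 6 weeks and 14.4% at 12 weeks. The KO and WT libraries did not overlap for 5 genes higher and 1 lower at 6 weeks, against 4.92% and 2.96% of all genes, and for 4 genes higher at 12 weeks, against 5.13%. C3 is among the 12-week calls and the 6-week genes without overlap, and C4b is among the genes without overlap at both ages. Both also had an unadjusted p under 0.05 at both ages. Both had enough counts to test only through their KO libraries. The median log2 fold change of the 9 genes was 0.24 at 6 weeks and 0.52 at 12 weeks, beside -0.02 and -0.03 over all tested genes. The 9 genes were chosen with earlier results of these data known. The shares and medians over all genes are therefore given as a description and are no test of the set.

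**Figure D1:**
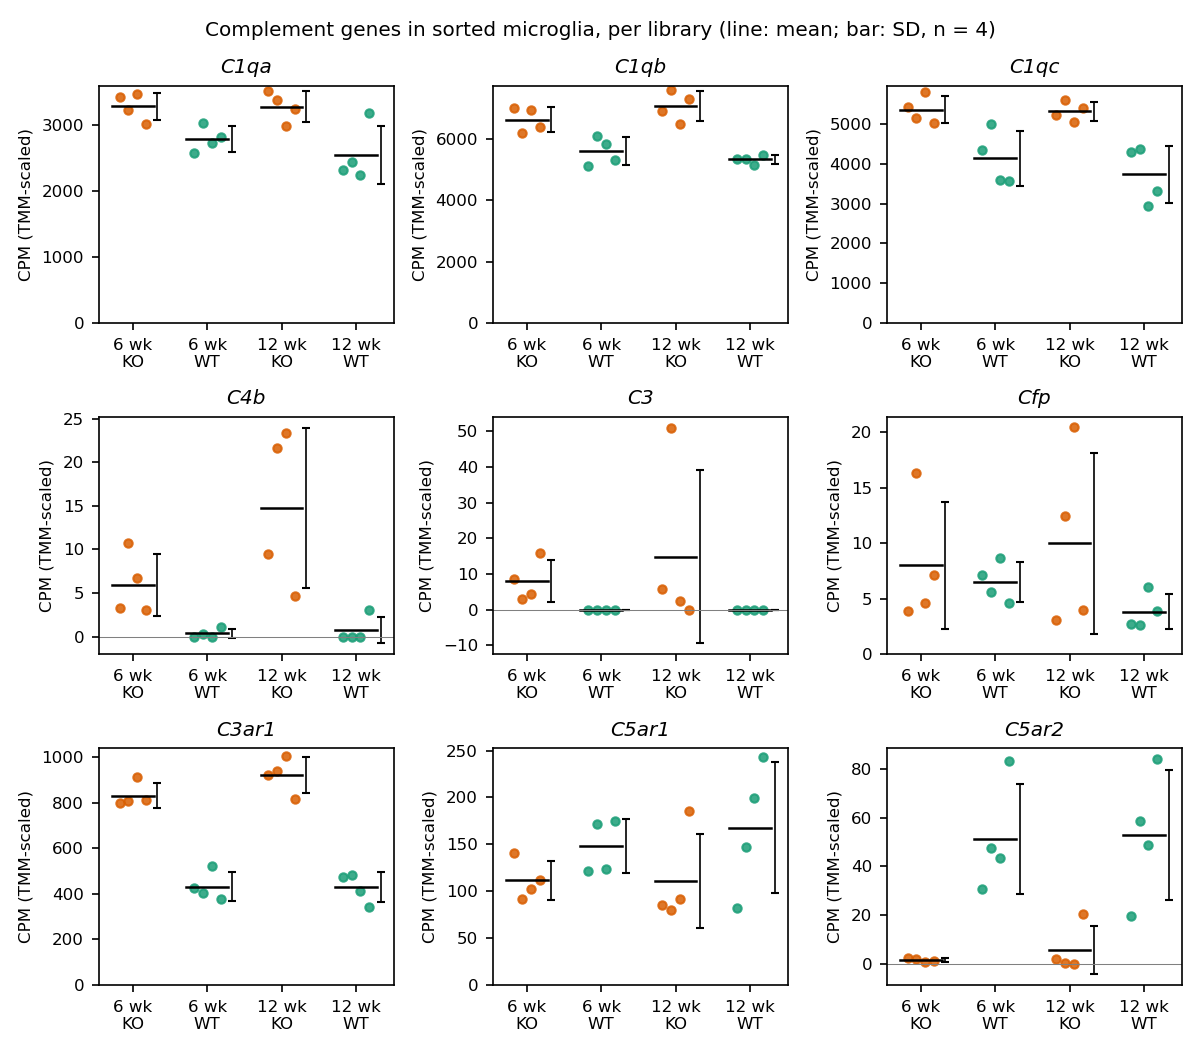
Level of each of the 9 complement genes in every library (CPM, 1 panel per gene, points for single libraries, lines for group means, bars for SD, n = 4, KO left of WT at each age). C3ar1 lies higher in every KO library than in any WT library of its age, C5ar2 lies lower in every 6-week KO library, and C3 was at 0 in all 8 WT libraries.

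The promoter windows of the genes whose levels differed most clearly, or that neighbour such a gene, are shown first. Each is the RefSeq window of 300 bases around the transcription start, most of them before it, on GRCm38.p6, read on the minus strand, where all of these genes lie. RefSeq entries matched 7 of the 9 genes. C1qb, C1qc and C1qa are adjacent genes on chromosome 4, and C5ar2 and C5ar1 are adjacent on chromosome 7. Capitals mark matches on either strand to the ETS core GGAAGT, which is part of sites bound by the myeloid factor PU.1, or to the SMAD box CAGAC, the core that SMAD proteins read.
C1qb (chr4:136886151-136886450): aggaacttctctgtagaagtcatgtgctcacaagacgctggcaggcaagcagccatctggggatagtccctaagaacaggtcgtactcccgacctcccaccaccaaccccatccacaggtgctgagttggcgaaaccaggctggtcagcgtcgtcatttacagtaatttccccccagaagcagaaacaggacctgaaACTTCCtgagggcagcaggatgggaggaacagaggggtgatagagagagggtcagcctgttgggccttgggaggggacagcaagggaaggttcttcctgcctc
C1qc (chr4:136892865-136893164): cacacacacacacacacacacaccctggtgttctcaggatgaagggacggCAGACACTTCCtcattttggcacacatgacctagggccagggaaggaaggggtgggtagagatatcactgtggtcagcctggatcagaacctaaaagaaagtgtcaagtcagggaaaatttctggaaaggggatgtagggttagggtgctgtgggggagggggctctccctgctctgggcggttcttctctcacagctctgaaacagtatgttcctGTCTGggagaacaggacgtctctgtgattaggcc
C3ar1 (chr6:122856108-122856407): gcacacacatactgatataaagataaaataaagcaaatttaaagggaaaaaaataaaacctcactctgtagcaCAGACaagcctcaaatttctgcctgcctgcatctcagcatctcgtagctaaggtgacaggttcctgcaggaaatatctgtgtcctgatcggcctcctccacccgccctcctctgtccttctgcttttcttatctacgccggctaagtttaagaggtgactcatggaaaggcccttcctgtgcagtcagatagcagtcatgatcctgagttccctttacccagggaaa
C5ar1 (chr7:16259289-16259588): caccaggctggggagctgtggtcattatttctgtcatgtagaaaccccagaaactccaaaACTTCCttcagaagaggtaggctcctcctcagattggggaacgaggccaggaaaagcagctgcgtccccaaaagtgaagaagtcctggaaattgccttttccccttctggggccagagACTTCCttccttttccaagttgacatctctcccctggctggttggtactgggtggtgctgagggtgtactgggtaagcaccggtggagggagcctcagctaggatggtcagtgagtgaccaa
C5ar2, first start (chr7:16244105-16244404): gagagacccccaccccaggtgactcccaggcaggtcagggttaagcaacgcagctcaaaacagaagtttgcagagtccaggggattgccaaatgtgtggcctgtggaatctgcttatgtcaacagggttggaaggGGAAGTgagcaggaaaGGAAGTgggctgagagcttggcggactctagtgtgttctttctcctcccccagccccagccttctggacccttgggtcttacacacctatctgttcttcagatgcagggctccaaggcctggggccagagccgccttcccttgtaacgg
C5ar2, second start (chr7:16242282-16242581): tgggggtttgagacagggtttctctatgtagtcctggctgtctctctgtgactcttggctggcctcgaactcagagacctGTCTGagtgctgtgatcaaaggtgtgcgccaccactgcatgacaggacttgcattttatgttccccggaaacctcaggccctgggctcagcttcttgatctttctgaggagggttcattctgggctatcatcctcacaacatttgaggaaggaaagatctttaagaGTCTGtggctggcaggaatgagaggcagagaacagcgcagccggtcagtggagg

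The 300-base window of C1qb held 1 ETS core, at -53 to -48 from the start, and that of C1qc held 1 at -195 to -190. In C1qc this core directly follows a SMAD box at -200 to -196, and a second SMAD box lies at 17 to 21. C5ar1 and the first C5ar2 window each held 2 ETS cores and no SMAD box, while C3ar1 and the second C5ar2 window held SMAD boxes and no ETS core. Of the windows not printed, that of C3 held no ETS core and no SMAD box, and that of Cfp held 1 SMAD box and no ETS core. Across 32851 mouse promoter windows of this length, 23.8% hold the ETS core and 49.6% the SMAD box, so both are common. The core of the interferon-stimulated response element, searched as 2 GAAA repeats with any 2 bases between them and present in 3.44% of windows, was in none of the 8 windows of the 7 matched genes.

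The C1q genes were the most abundant of the set, and their mean levels lay higher in KO microglia at both ages, with 2 of the 3 chains past the test at 12 weeks. C1qb encodes the B chain. At 6 weeks it reached 6987, 6203, 6932 and 6376 CPM in KO libraries 1 to 4, against 5125, 6103, 5846 and 5319 CPM in WT libraries 1 to 4. Every KO library lay above every WT library, though KO replicate 2 and WT replicate 2 were close. At 12 weeks C1qb reached 6892, 7595, 6476 and 7297 CPM in KO libraries 1 to 4, against 5343, 5357, 5146 and 5464 CPM in WT libraries 3, 4, 5_6 and 8. The groups did not overlap and the WT libraries lay close together. The log2 fold change was 0.24 ± 0.07 at 6 weeks (SE, adjusted p = 0.161), and 0.41 ± 0.07 at 12 weeks (adjusted p = 0.00278), where the mean was 1.33-fold the WT mean. Over 16 refits that each left out 1 library, the 12-week change passed in all 16.

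C1qc encodes the C chain. It averaged 5356 ± 345 CPM in KO and 4131 ± 682 CPM in WT at 6 weeks (SD, n = 4 each), with a log2 fold change of 0.38 ± 0.12 (SE, adjusted p = 0.304). At 12 weeks it reached 5223, 5602, 5055 and 5393 CPM in KO, against 4302, 4366, 2933 and 3318 CPM in WT libraries 3, 4, 5_6 and 8. The KO libraries lay together, while 2 of the WT libraries lay well below the other 2. The 12-week change was 0.52 ± 0.12 (adjusted p = 0.0325), or 1.43-fold between the means. It passed in 11 of 16 refits and not without WT replicate 5_6 (adjusted p = 0.0764), WT replicate 8 (0.0653), or KO replicate 1 (0.0606), 2 (0.0836) or 4 (0.0649).

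C1qa encodes the A chain and had no promoter entry. It averaged 3286 ± 207 CPM in KO and 2792 ± 192 CPM in WT at 6 weeks, with a log2 fold change of 0.23 ± 0.10 (SE, adjusted p = 0.568). At 12 weeks C1qa was measured at 3525, 3388, 2982 and 3242 CPM in KO, against 2315, 2443, 2244 and 3187 CPM in WT libraries 3, 4, 5_6 and 8. The groups overlapped through WT replicate 8, which lay far above the other WT libraries. The change was 0.37 ± 0.10 (adjusted p = 0.0633). Without WT replicate 8 it was 0.52 (adjusted p = 0.00146), and it also passed without KO replicate 3 (adjusted p = 0.0451), or without 6-week WT replicate 2 (0.0492) or KO replicate 4 (0.0475).

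Taken as a share of each library, the 3 chains together made up 1.43% to 1.54% of gene counts in KO and 1.16% to 1.40% in WT at 6 weeks, and 1.496% to 1.65% in KO and 1.06% to 1.25% in WT at 12 weeks. The KO and WT ranges did not overlap at either age. Among C1q counts, C1qb took the greatest share in all 4 groups, with means of 43.4% in KO and 44.8% in WT at 6 weeks and of 45.1% in KO and 46.1% in WT at 12 weeks. The share of C1qc was more even among KO than among WT libraries, at 33.4% to 35.8% over the 8 KO libraries and 27.7% to 36.1% over the 8 WT libraries. The low end came from 6-week WT replicates 3 and 4 and 12-week WT replicates 5_6 and 8, and the difference in spread was not tested. In sorted bulk RNA, a change in the number of cells of a type and a change in RNA per cell cannot be told apart.

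**Figure D2:**
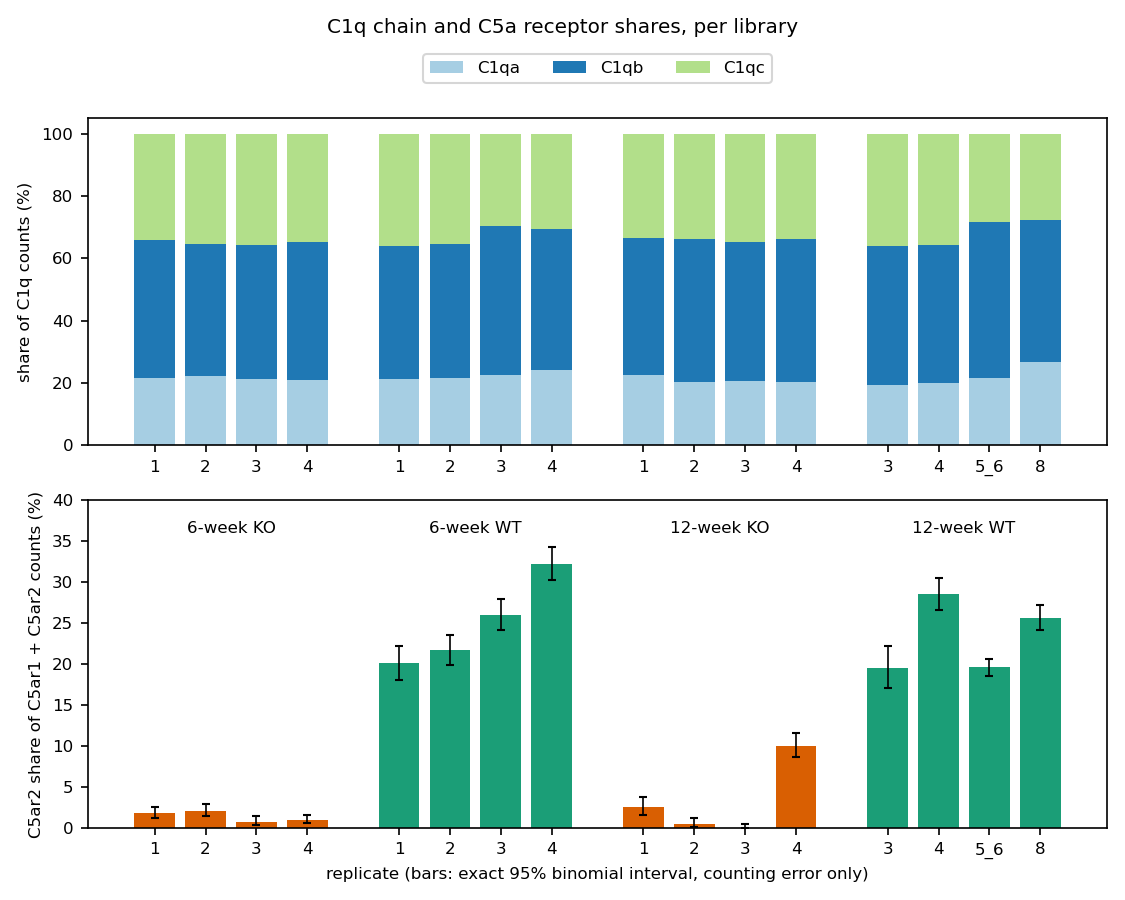
Shares by library (1 bar each, KO left of WT at each age): above, the 3 C1q chains as percentages of C1q counts; below, C5ar2 as a percentage of C5ar1 and C5ar2 counts, with exact 95% binomial intervals that cover counting error only. C1qc takes 33.4% to 35.8% of C1q counts in KO and 27.7% to 36.1% in WT, and the C5ar2 share is at most 10.02% in KO and at least 19.6% in WT.

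C3, the protein on which all complement pathways converge, was detected in 7 of 8 KO libraries and in none of the WT libraries. It reached 8.47, 2.93, 4.27 and 15.98 CPM in KO at 6 weeks, against 0 in all 4 WT libraries. The 12-week levels were 5.86, 50.9, 2.46 and 0 CPM in KO, against 0 in all 4 WT libraries. Most of the 12-week signal lay in KO replicate 2, with 479 counts, while replicates 1, 3 and 4 had 58, 20 and 0. Set against a limit of 3 counts over the WT group, the KO mean was at least 103-fold higher at 6 weeks and at least 257-fold higher at 12 weeks. The 12-week bound rests mostly on KO replicate 2, does not hold for each KO library and leaves out the spread among them. Without replicate 2 the 12-week KO mean was 2.77 CPM, against 14.8 CPM with it. The test gave an adjusted p of 0.146 at 6 weeks and 0.0412 at 12 weeks. The 12-week call held in 5 of 16 refits, with adjusted p between 0.00488 and 0.0916. It was lost without any single library of the 6-week KO or 12-week WT group and without 12-week KO replicate 1, 2 or 3. The 6-week change passed without 12-week KO replicate 4 (adjusted p = 0.0218).

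C4b, the mouse gene for C4, the component cleaved before C3 in the classical pathway, was low in all groups and lay higher in KO. At 6 weeks it reached 3.31, 10.7, 6.72 and 3.10 CPM in KO, against 0, 0.343, 0 and 1.09 CPM in WT. At 12 weeks it reached 9.50, 21.7, 23.4 and 4.64 CPM in KO, against 0, 0, 0 and 3.06 CPM in WT libraries 3, 4, 5_6 and 8. No KO library overlapped a WT library at either age, but neither change passed the test: the log2 fold change was 4.08 ± 1.60 at 6 weeks (SE, adjusted p = 0.497) and 4.31 ± 1.55 at 12 weeks (adjusted p = 0.181). All the 12-week WT signal was in replicate 8, and without it the adjusted p was 0.00816. In counts, the 4 KO libraries held 337 reads and the 4 WT libraries 12 at 6 weeks, and 525 and 29 at 12 weeks. C4a is a near-identical copy whose reads counting could split from those of C4b. It held 28 counts in KO and 8 in WT at 6 weeks, and 33 in KO and 0 in WT at 12 weeks, so the C4b values carry that uncertainty. In 12-week KO replicate 4, C4a made up 45.6% of C4 counts.

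Properdin, encoded by Cfp, stabilises the enzyme of the alternative pathway that cleaves C3. It averaged 7.98 ± 5.73 CPM in KO and 6.504 ± 1.79 CPM in WT at 6 weeks, and 9.98 ± 8.15 CPM in KO and 3.83 ± 1.59 CPM in WT at 12 weeks (SD, n = 4 each). The KO groups spread widely, with 16.3 CPM in 6-week replicate 2 and 12.4 and 20.4 CPM in 12-week replicates 2 and 3, while the other KO libraries lay between 3.03 and 7.13 CPM. The log2 fold change was 0.23 ± 0.59 at 6 weeks (SE, adjusted p = 1) and 1.17 ± 0.61 at 12 weeks (adjusted p = 0.41).

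The summed markers of border-associated macrophages and of monocytes had higher means in KO at both ages. The 9 markers of border-associated macrophages, none at 0 in any group, summed to 303 to 482 CPM in KO and 251 to 322 CPM in WT at 6 weeks, and to 273 to 372 CPM in KO and 224 to 267 CPM in WT at 12 weeks. Of the 9, 0 passed the test at 6 weeks and 1, Ms4a7, passed as higher at 12 weeks. The 7 monocyte markers summed to 9.37 to 36.7 CPM in KO and 6.25 to 18.7 CPM in WT at 6 weeks, and to 15.1 to 31.6 CPM in KO and 1.08 to 11.4 CPM in WT at 12 weeks. At 12 weeks KO and WT did not overlap in the sums of the border-associated macrophage markers or in those of the monocyte markers. Of the monocyte markers, Ly6c2 and Chil3 were at 0 in the KO groups of both ages and in 12-week WT. S100a4 was at 0 in 6-week KO and in 12-week WT, and Fn1 was at 0 in 12-week WT. The sort left out Ly6c-positive cells, so Ly6c2 at 0 does not measure the share of other monocytes. Of the 7 monocyte markers 3 could be tested, and 0 passed at either age. The 7 astrocyte markers summed to 276 to 369 CPM in KO and 327 to 431 CPM in WT at 6 weeks, and to 292 to 404 CPM in KO and 257 to 385 CPM in WT at 12 weeks. The 8 neutrophil markers summed to 2.01 to 5.44 CPM in KO and 0 to 62.3 CPM in WT at 6 weeks, and to 0 to 15.8 CPM in KO and 0 to 3.27 CPM in WT at 12 weeks, with Ly6g and Cxcr2 at 0 in all 4 groups. The 6 endothelial and mural markers summed to 11.8 to 38.8 CPM in KO and 51.8 to 77.4 CPM in WT at 6 weeks, with no overlap, and to 26.7 to 38.3 CPM in KO and 15.7 to 53.6 CPM in WT at 12 weeks, where 1 of them, Flt1, passed as higher in KO. Of 6 oligodendrocyte and 6 neuronal markers, 0 passed at either age. The part of these cells in the levels of C3, C4b, Cfp and the receptors was not tested.

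C3ar1, the receptor for the C3 fragment C3a, showed the firmest change of the set and was higher in KO at both ages. At 6 weeks it reached 798, 806, 911 and 812 CPM in KO, against 426, 403, 524 and 377 CPM in WT. The 12-week libraries held 922, 941, 1007 and 817 CPM in KO, against 475, 484, 413 and 342 CPM in WT libraries 3, 4, 5_6 and 8. The lowest KO library lay well above the highest WT library at each age. The log2 fold change was 0.95 ± 0.11 at 6 weeks (SE, adjusted p = 0.000298) and 1.11 ± 0.11 at 12 weeks (adjusted p = 2.68e-05), with ratios of the means of 1.92 and 2.15. It passed in all 16 refits at both ages, between 0.88 and 1.02 at 6 weeks and between 1.05 and 1.21 at 12 weeks.

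C5ar2 was the one gene of the set called lower in KO. C5ar2, a C5a receptor that does not signal through G proteins, reached 2.53, 1.95, 0.746 and 1.09 CPM in KO at 6 weeks, against 30.6, 47.5, 43.5 and 83.0 CPM in WT. All KO libraries lay far below all WT libraries, and the KO mean was 3.09% of the WT mean. The log2 fold change was -5.04 ± 1.04 (SE, adjusted p = 0.0302). Each refit without 1 of the 6-week libraries lost the call, with adjusted p between 0.068 and 0.122, except that without WT replicate 1. At 12 weeks C5ar2 reached 2.22, 0.319, 0 and 20.7 CPM in KO, against 19.9, 58.7, 48.6 and 84.1 CPM in WT libraries 3, 4, 5_6 and 8. KO replicate 4 stood apart from the other KO libraries and overlapped WT replicate 3. The 12-week change was -3.30 ± 0.95 (adjusted p = 0.0787). Without KO replicate 4 it was -5.85 (adjusted p = 0.000754), and the KO mean was 0.847 CPM, against 5.81 CPM with it.

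C5ar1, the signalling receptor for C5a on myeloid cells, did not pass the test at either age. It reached 141, 92.1, 102 and 112 CPM in KO at 6 weeks, against 122, 172, 124 and 175 CPM in WT, so the groups overlapped. At 12 weeks it reached 85.9, 79.6, 92.1 and 186 CPM in KO, against 81.9, 147, 199 and 244 CPM in WT libraries 3, 4, 5_6 and 8. Here too KO replicate 4 was the highest of its group. The log2 fold change was -0.43 ± 0.28 at 6 weeks (SE, adjusted p = 0.9) and -0.56 ± 0.28 at 12 weeks (adjusted p = 0.393).

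The share of C5ar2 in the counts of both C5a receptors separated KO from WT at both ages. It was 0.726% to 2.08% in KO and 20.1% to 32.2% in WT at 6 weeks. At 12 weeks it was 2.52%, 0.399%, 0% and 10.02% in KO, against 19.6%, 28.5%, 19.6% and 25.7% in WT libraries 3, 4, 5_6 and 8. The value of 10.02% in KO replicate 4 had an exact (Clopper-Pearson) 95% interval of 8.61% to 11.6%, and the 0% in KO replicate 3 had an upper bound of 0.492%, both covering counting error only. The share was lower in every KO library, KO replicate 4 included, than in any WT library.

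**Figure D3:**
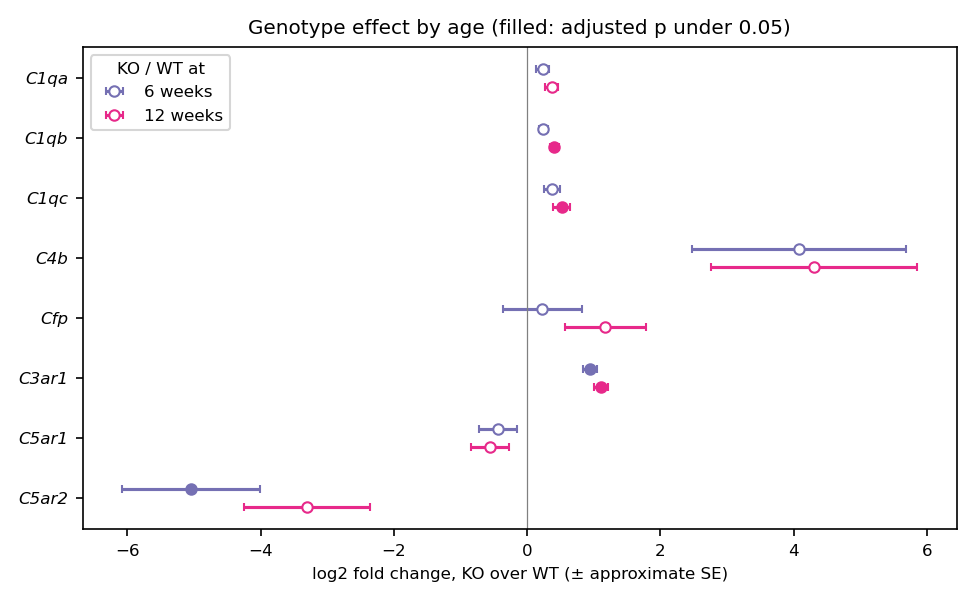
Log2 fold change of KO against WT for each gene at 6 and 12 weeks (points, filled where adjusted p was under 0.05, with bars of 1 SE). C3ar1 lies at 0.95 and 1.11 with short bars, the C1q chains between 0.23 and 0.52, and C5ar2 at -5.04 and -3.30 with long bars; C3, with no counts in WT, has no finite fold change and is described by its lower bound.

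Compared per kilobase of exon, using the length of all annotated exons of each gene in GENCODE M21, C1qb was the highest gene in all 4 groups, at 6089 CPM per kb in KO and 5145 in WT at 6 weeks, and 6494 in KO and 4897 in WT at 12 weeks. C1qa and C1qc came next and overlapped each other in every group. C3ar1 followed, at 193 CPM per kb in KO and 100.4 in WT at 6 weeks and 214 in KO and 99.5 in WT at 12 weeks, and lay above C5ar1 beyond the spread in every group except 12-week WT, where C5ar1 averaged 65.4 CPM per kb. The lower end of the order differed between genotypes. In WT, C5ar2 was sixth, above Cfp, with 14.4 CPM per kb at 6 weeks and 14.8 at 12 weeks, and C4b and C3 came last. In KO, C5ar2 averaged 0.444 CPM per kb at 6 weeks and 1.63 at 12 weeks. In 12-week KO, Cfp, C3, C4b and C5ar2 all overlapped each other, so that these 4 cannot be ranked. In 6-week KO, Cfp overlapped C3, which overlapped C4b and C5ar2. Cfp, at 2.24 to 9.40 CPM per kb, lay above C4b (0.545 to 1.88) and C5ar2 (0.210 to 0.711) there.

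Age was compared within each genotype. Of the 9 genes, 0 passed between 12 and 6 weeks in KO and 0 in WT, where 0.0234% and 0.0117% of all genes were called (edgeR), and 0 did so by DESeq2. At an unadjusted p under 0.05 the number was also 0, against 8.8% of all genes in KO and 7.44% in WT. The KO effect at 12 weeks minus that at 6 weeks was also tested directly: 0 of the 9 genes passed, against 0.00585% of all genes, with 0 by DESeq2 and 0 at an unadjusted p under 0.05, against 4.74% of all genes. At these shares a count of 0 among 9 genes lies near the background. The differences were 0.16 ± 0.15 for C3ar1, 0.16 ± 0.10 for C1qb, 0.14 ± 0.17 for C1qc, 0.13 ± 0.14 for C1qa and 1.74 ± 1.28 for C5ar2 (log2, SE, adjusted p = 1 for each). For C5ar2, C4b and Cfp the standard errors of 0.83 or more left wide room for a difference with age. C3 gives no such difference, since it was at 0 in WT at both ages.

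The other genes of the cascade give the setting. Of 55 further complement genes, all were in the files and 30 could be tested. At 6 weeks 1 was called higher and 1 lower, against 0.796% and 0.0761% of all genes. The other 28 were not called, and the median log2 fold change was 0.15, beside -0.02 over all genes. At 12 weeks 2 were called higher and 2 lower, against 2.03% and 0.954% of all genes, with 26 not called and a median of -0.08, beside -0.03. Among the higher calls, Fcna had enough counts to test only through its KO libraries. This list too was chosen with earlier results of these data known. None of the 6 genes of the terminal pathway, which forms the membrane pore, had enough counts to test. Among 14 membrane regulators, 11 were tested and 1, Csmd3, was called, at both ages. Among 9 receptors, 8 were tested and 1, Itgax, was called, at both ages.

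Itgax, the alpha chain of complement receptor 4, which binds C3 fragments, reached 36.5, 14.8, 29.9 and 30.9 CPM in KO at 6 weeks, against 0.108, 1.37, 4.11 and 3.52 CPM in WT. The 12-week levels of Itgax were 27.6, 51.7, 41.7 and 37.7 CPM in KO, against 4.00, 4.46, 0.482 and 4.75 CPM in WT libraries 3, 4, 5_6 and 8. The genotypes did not overlap at either age. The log2 fold change of Itgax was 3.62 ± 0.75 at 6 weeks (SE, adjusted p = 0.0307) and 3.56 ± 0.73 at 12 weeks (adjusted p = 0.0132). The 12-week change passed in all 16 refits and the 6-week change in 10, being lost without 6-week WT replicate 2, 3 or 4 or KO replicate 1, 3 or 4 (adjusted p up to 0.126). The partners of complement receptor 3 did not pass: Itgam, whose protein CD11b was used for the sort, averaged 278 CPM in KO and 282 CPM in WT at 6 weeks and 242 CPM in KO and 265 CPM in WT at 12 weeks, and Itgb2 had log2 fold changes of 0.35 ± 0.11 (adjusted p = 0.229) and 0.33 ± 0.11 (adjusted p = 0.12).

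Csmd3, which encodes a large membrane protein with CUB and sushi domains, was lower in KO, with a log2 fold change of -0.82 ± 0.17 at 6 weeks (SE, adjusted p = 0.0367) and -1.04 ± 0.17 at 12 weeks (adjusted p = 0.00307). It reached 94.7, 81.9, 88.1 and 94.8 CPM in KO at 12 weeks, against 148, 201, 220.2 and 168 CPM in WT libraries 3, 4, 5_6 and 8. The 12-week call held in all 16 refits, the 6-week call in 4 of 16, with adjusted p up to 0.154: it was lost without any 6-week WT library, 6-week KO replicate 1, 3 or 4, 12-week WT replicate 4 or any 12-week KO library. On the lectin pathway, Fcna (ficolin A, a recognition protein) reached 2.93, 4.57, 5.05 and 6.89 CPM in KO at 12 weeks and 0 in all 4 WT libraries (adjusted p = 0.031). Its KO mean was at least 84.3-fold higher. At 6 weeks Fcna was at 3.70, 5.001, 5.23 and 4.14 CPM in KO, against 0, 7.31, 0 and 1.33 CPM in WT, so the groups overlapped (log2 fold change 1.36 ± 1.31, adjusted p = 1). Masp2, the protease that cleaves C4 in that pathway, reached 4.95, 12.2, 4.31 and 9.03 CPM in KO at 12 weeks, against 14.5, 18.7, 21.9 and 31.4 CPM in WT (log2 fold change -1.51 ± 0.35, adjusted p = 0.029). Its 6-week change was -0.60 ± 0.34 (adjusted p = 0.825). Fcna passed in 10 refits, and not without any single 12-week WT library or 12-week KO replicate 2 or 4, with adjusted p up to 0.0704. Masp2 passed in 11, and not without 12-week WT replicate 5_6 or 8 or KO replicate 1, 3 or 4, with adjusted p up to 0.0935.

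**Figure D4:**
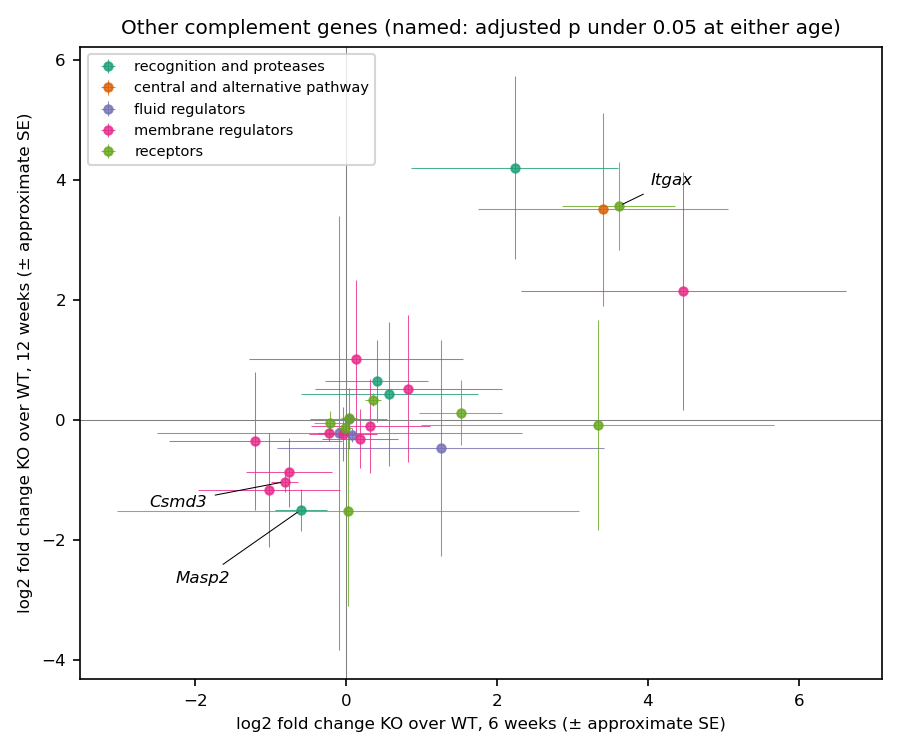
Log2 fold change of KO against WT at 6 weeks (horizontal axis) and 12 weeks (vertical axis) for 28 of the 30 other complement genes tested, coloured by role, with bars of 1 SE and names for genes past the threshold at either age; the other 2 were at 0 in a WT group and have no finite fold change. Itgax lies at 3.62 and 3.56, far from the cluster of genes near 0, and Csmd3 at -0.82 and -1.04.

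For each gene, the 3 genes with the closest pattern were taken by Pearson's r of log2 CPM over the 16 libraries, among 9840 genes with a mean of at least 5 CPM. These r values contain the KO and WT difference and the libraries that stood apart, and are given as a description. C3ar1 lay closest to the chemokine gene Ccl5 (0.968), to Rplp0 (0.959) and to the chemokine gene Ccl4 (0.955). C1qa lay closest to Ctsd (0.944), Rfc4 (0.915) and Atp6v0c (0.900), and C1qb to Ctsb (0.948), Bcl2a1a (0.943) and Ctsz (0.941). Ctsd, Ctsb and Ctsz encode lysosomal cathepsins. C1qc lay closest to Ch25h (0.929), Hif1a (0.904) and Mpeg1 (0.893). C4b lay closest to Lgals3bp (0.929), the class I gene H2-Q4 (0.929) and Cst7 (0.925), and C3 to Csf2ra (0.884), Lgals9 (0.873) and Cd69 (0.865). C5ar2 lay closest to Gadd45g (0.917), Aspscr1 (0.871) and Dcbld2 (0.866), and C5ar1 to Pard6a (0.828), Baz2b (0.810) and Atp1b1 (0.810). Cfp had the loosest relations, to Ubap2l (0.737), Ppm1k (0.726) and Tctn3 (0.726).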

How the data were processed

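RNA from sorted microglia was prepared with a low-input library kit. Per the submitters' processing notes, the tools named were FastQC 0.11.9, cutadapt 2.10, TopHat, SAMtools 1.10, Picard 2.13.2 and HTSeq 0.11.0, with the build GRCm39. Nothing in these sources states the gene annotation, whether counting used strand, or how reads with several matches were treated. The deposited values are raw counts per gene, 1 file for each library, made by the authors; all 16 libraries carry a group in their labels. Counts were tested with edgeR 4.0.16 (R 4.3.3, quasi-likelihood, TMM) after filterByExpr with a minimum count of 10, which left 17090 of 53700 lines. The model had 4 group terms and sex as labelled, over all 16 libraries, with Benjamini-Hochberg adjustment and a threshold of 0.05. The SE of a fold change was derived from the fold change and the F statistic. DESeq2 1.42.0 was an alternative, and the code was tested on simulated data. A group at 0 was set to 3 counts for bounds. Totals of 7882182 to 22142972 counts put 3 counts at 0.132 to 0.376 CPM per library.

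The members and the gene lists were chosen with earlier results of these data known. Named genes were the 9 members, the listed complement genes past the threshold in any of the 5 comparisons, the 3 closest genes to each member and Ercc1; Itgam and Itgb2 were named besides as the chains of complement receptor 3 after their values were seen, as were C4a and the markers named. Gene lengths come from GENCODE M21 and promoter windows from RefSeq, both on GRCm38, an earlier build than that of the counts. 1 listed gene is not reported here.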

Additional observations from a re-analysis of the deposited data

Results flagged for a closer look

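Of 69 groups of 4 values checked, 7 had 1 library far from the other 3. The cutoff flags about 1 in 20 groups only where values are independent and normally spread. Low counts, and shares that reuse the same counts, do not meet this, so no excess is read from the 7. In 12-week KO, C3 stood at 50.9 CPM in replicate 2, C5ar1 at 186 CPM and C5ar2 at 20.7 CPM in replicate 4, and the C1qa share of C1q counts at 22.5% in replicate 1. In 6-week KO, C3ar1 stood at 911 CPM in replicate 3. In WT, C4b stood at 3.06 CPM in 12-week replicate 8, and Ercc1 at 30.6 CPM in 6-week replicate 4.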

How the results depend on the processing

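Of the 9 genes, 2 passed at 6 weeks and 4 at 12 weeks. Without the filter on low counts the numbers were 5 and 7, and with DESeq2 4 and 7. The number over all genes was taken only for the main fit and for DESeq2. Counts under the other settings, that without the filter included, therefore have no background here. At 12 weeks 2 passed when the fit held only the libraries of that comparison, and 2 without WT replicate 5_6. Leaving out 1 library at a time gave 1 to 3 at 6 weeks and 2 to 5 at 12 weeks. Without both 12-week WT replicates 3 and 8, an alternative chosen after seeing the data, the 12-week number was again 4, but C1qc (adjusted p = 0.127) and C3 (0.134) were lost while C1qa (0.0123) and C4b (0.029) passed. With the replicate number as a block, 2 passed at 6 weeks and 0 at 12 weeks, where only 4 libraries have a shared number; same-numbered libraries did not deviate together (correlations -0.0246 to 0.0623), nor did every library correlate best with its own number. Over all genes DESeq2 called 366 at 6 weeks and 1158 at 12 weeks, against 149 and 510 with edgeR; for age it called 270 in KO and 152 in WT, against 4 and 2, and for the difference of KO effects 55, against 1. Signs turned only in values that did not pass. With the block, C5ar1 at 12 weeks was 0.27, and the difference of KO effects was -0.12 for C1qc, -0.033 for C3ar1 and 0.66 for C5ar1. Without WT replicate 5_6 the C4b difference was -0.20. Leaving out 1 library, the differences spanned -0.44 to 0.10 for C5ar1, -1.66 to 6.47 for C4b and -0.82 to 2.30 for C5ar2, and Cfp at 6 weeks spanned -0.23 to 0.45 (all log2). Of the 55 other complement genes, the number past the threshold was 2 at 6 weeks and 4 at 12 weeks; it was 0 at 6 weeks with only that comparison's libraries, 2 at 12 weeks without WT replicate 5_6, 1 without WT replicates 3 and 8, and 0 at both ages with the block. At 12 weeks it was 6 both without the filter and with DESeq2, and at 6 weeks 3 without the filter. For age, 1 of them passed in KO and 1 in WT, both without the filter and with DESeq2, and 1 in the difference of KO effects without the filter. The causes were not tested. Low counts limit C3, C4b and Cfp in all groups and C5ar2 in KO.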

Other observations

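In 12-week KO replicate 4, several of the 9 genes lay at the edge of their group. It had the lowest C3 (0 CPM) and C3ar1 (817 CPM) and the highest C5ar1 (186 CPM) and C5ar2 (20.7 CPM) of the 4 libraries, and also the highest Ercc1 (6.77 CPM). C4b was likewise lowest there, at 4.64 CPM.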
